A study of Mus musculus with 16 samples.

Results

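Vomeronasal receptor genes lie in tandem clusters, and the accessible regions in and around those clusters were followed here through male germ cell development. A member is an ATAC-seq peak that overlaps a window reaching from 10 kb below to 10 kb above the outer bounds of an autosomal gene whose symbol begins with Vmn1r or Vmn2r. The RefSeq table of mouse assembly GRCm38 held 616 such genes, 366 Vmn1r (229 protein-coding, 137 pseudogenes) and 250 Vmn2r (122 protein-coding, 128 pseudogenes). Windows less than 100 kb apart were joined into 76 clusters. Of 302829 peaks in 6 lists, 1250 were members: 64 and 66 in heterozygous and knockout cells of E13.5, 239 and 267 in those of E16.5, 425 at P0 and 189 at P3.

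The study profiled gonocytes, as male germ cells are called before and around birth, to ask what Morc1 knockout does to their chromatin. Animals were Morc1 (+/-), the heterozygous controls, or Morc1 (-/-), the knockouts, of embryonic stages E13.5 and E16.5 or of postnatal days P0 and P3, with 2 samples per group and 16 in all. All carried the Mvh-Venus transgene, a germ-cell reporter, so no group is free of it, and the controls lack 1 copy of Morc1. The authors deposited 1 list of peak positions per group, with no score and no value per sample, so nothing below has a spread between replicates, no test between groups was possible, and the depth is unknown. The lists deposited for the 2 genotypes were identical at P0 and at P3. Each was used once, and genotypes were compared at the embryonic stages alone.

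Vmn1r and Vmn2r proteins are G protein-coupled receptors for pheromones and other social cues, made by sensory neurons of the vomeronasal organ in the nose. Each such neuron expresses very few of them, and the gene families are known for recent duplication and many pseudogenes. Morc1 encodes a GHKL-type ATPase needed for transposon silencing in the male germ line.

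A peak lay within 1000 bp of an outer end of Morc1 in all 6 lists, knockout lists included, and the deleted part of the gene is not given in the sources used here. The same measure was taken at cell type markers. Over all autosomal genes 35.9% to 42.6% had such a peak, and over the protein-coding ones alone 59.8% to 64.7%. The germ cell share was near that of protein-coding genes, so these counts do not by themselves identify the cell type. Among 9 germ cell markers, Ddx4, Dazl, Dnd1, Piwil4, Mael and Sycp3 had one in all 6 lists and Nanos2 and Tdrd1 in none. Nanos3 had one in the E13.5 knockout list only. Of other cell types, 2 to 3 of 6 Sertoli markers (none at Sox9, Amh or Gata4), 1 of 6 Leydig markers (Cyp11a1), 2 of 4 endothelial markers (Kdr and Tek) and 0 to 1 of 4 blood markers had one. Their part in the results was not tested. Of the vomeronasal neuron genes, the G protein subunit genes Gnao1 and Gnai2 had one in all 6 lists, the channel gene Trpc2 in the P0 list only, and Omp, the olfactory marker protein gene, in none. Over 30 vomeronasal organ genes found in the table, 9 to 13 had a peak at an end. That share was near that of all autosomal genes and below that of protein-coding ones. The formyl peptide receptor genes of that list had none.

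The promoters below are of receptor genes and of unrelated genes inside or beside their clusters. Each is the 250 bases before an annotated start, 5′ to 3′ on the strand of the gene, from the RefSeq promoter table of GRCm38.p6, with every CG dinucleotide in capitals. Rfc3 (chr5:151651209-151651458, minus strand), Zfp606 (chr7:12478055-12478304, plus strand) and Zfp780b (chr7:27979158-27979407, minus strand) overlapped a region held by all 6 lists and carried 15, 10 and 16 CG dinucleotides. Vmn1r65 (chr7:6011011-6011260, minus strand) was the only receptor gene whose promoter overlapped a peak, and Vmn1r111 (chr7:20703217-20703466, minus strand) stands for a group of 6 genes with the same 250 bases. Both carried 1 CG dinucleotide. The 5 were chosen after their values were seen. Over all 8 promoter entries of unrelated genes at regions held by 6 lists, the 250 bases carried 5 to 17 CG dinucleotides.
Rfc3: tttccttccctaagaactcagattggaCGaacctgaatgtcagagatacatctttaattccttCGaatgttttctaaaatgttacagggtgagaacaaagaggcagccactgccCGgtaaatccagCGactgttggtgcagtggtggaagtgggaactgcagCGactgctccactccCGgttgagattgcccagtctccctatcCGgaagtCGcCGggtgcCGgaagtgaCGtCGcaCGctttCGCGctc
Zfp606: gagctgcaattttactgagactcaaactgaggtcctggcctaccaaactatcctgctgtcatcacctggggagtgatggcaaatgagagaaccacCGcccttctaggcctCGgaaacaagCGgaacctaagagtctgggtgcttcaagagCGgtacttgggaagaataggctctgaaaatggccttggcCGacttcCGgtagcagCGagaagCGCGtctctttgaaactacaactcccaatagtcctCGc
Zfp780b: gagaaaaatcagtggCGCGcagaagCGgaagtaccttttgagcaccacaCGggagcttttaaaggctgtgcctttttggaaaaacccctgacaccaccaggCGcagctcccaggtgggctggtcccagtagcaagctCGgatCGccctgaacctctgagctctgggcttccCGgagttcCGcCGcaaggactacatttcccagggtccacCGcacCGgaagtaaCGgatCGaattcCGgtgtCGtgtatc
Vmn1r65: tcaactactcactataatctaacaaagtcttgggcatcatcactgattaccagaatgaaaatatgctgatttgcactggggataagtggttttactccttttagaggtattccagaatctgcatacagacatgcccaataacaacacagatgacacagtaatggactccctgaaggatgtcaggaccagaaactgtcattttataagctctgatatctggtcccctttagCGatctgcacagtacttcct
Vmn1r111: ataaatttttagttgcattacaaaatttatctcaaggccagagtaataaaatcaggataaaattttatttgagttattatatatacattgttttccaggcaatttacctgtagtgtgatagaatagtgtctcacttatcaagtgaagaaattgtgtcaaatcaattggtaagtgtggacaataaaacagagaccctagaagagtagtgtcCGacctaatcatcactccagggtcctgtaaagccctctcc

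The ETS core CCGGAA, searched on both strands, occurred 2 times in the Rfc3 stretch, 2 times in that of Zfp780b and 1 time in that of Zfp606, and in neither receptor stretch. Of the 8 entries of unrelated genes, 5 held it and 3, among them Zfp709, did not. A CCAAT box was found in the Vmn1r65, Vmn1r111, Rfc3 and Zfp606 stretches, and the DMRT core TACATTGT in that of Vmn1r111. These are matches of letters only.

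Vomeronasal windows were poor in peaks at E13.5, held more at E16.5, most at P0, and fewer again at P3. Per Mb of window, 4.02 peaks were found in the E13.5 heterozygous list and 4.15 in the E13.5 knockout list, 15.0 and 16.8 in the E16.5 heterozygous and knockout lists, 26.7 at P0 and 11.9 at P3. Lists differ in length, so each density was divided by that of the remaining autosomal sequence of the same list. This ratio was 0.244 (95% interval 0.191 to 0.311) in E13.5 heterozygous and 0.256 (0.202 to 0.326) in E13.5 knockout cells. It was 0.695 (0.612 to 0.789) in E16.5 heterozygous and 0.732 (0.650 to 0.826) in E16.5 knockout cells, 0.997 (0.906 to 1.10) at P0 and 0.652 (0.565 to 0.752) at P3. The intervals are Wilson intervals converted to ratios and cover counting error over peaks only.

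Both families followed this course. In Vmn1r windows the 6 ratios were 0.209, 0.203, 0.716, 0.751, 0.962 and 0.653, and in Vmn2r windows 0.267, 0.292, 0.679, 0.719, 1.02 and 0.651, in the order of stages with heterozygous before knockout. The 2 families' intervals overlapped in every list. From E13.5 to E16.5 the number of members rose 3.73-fold in heterozygous and 4.05-fold in knockout cells, where all autosomal peaks rose 1.31-fold and 1.42-fold. From P0 to P3 the members numbered 0.445 of their P0 count, against 0.679 for all autosomal peaks. Windows built the same way around olfactory receptor genes, another clustered chemoreceptor family, went through the same order of stages at higher ratios. These were 0.368 and 0.326 for the E13.5 lists, 1.20 and 1.12 for the E16.5 lists, 1.35 for P0 and 1.04 for P3. In gene-poor 1 Mb windows the ratios were 0.355 and 0.341, 1.07 and 0.988, 1.19, and 0.778. From E16.5 on, the vomeronasal intervals lay below those of both comparison sets in every list.

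**Figure D1:**
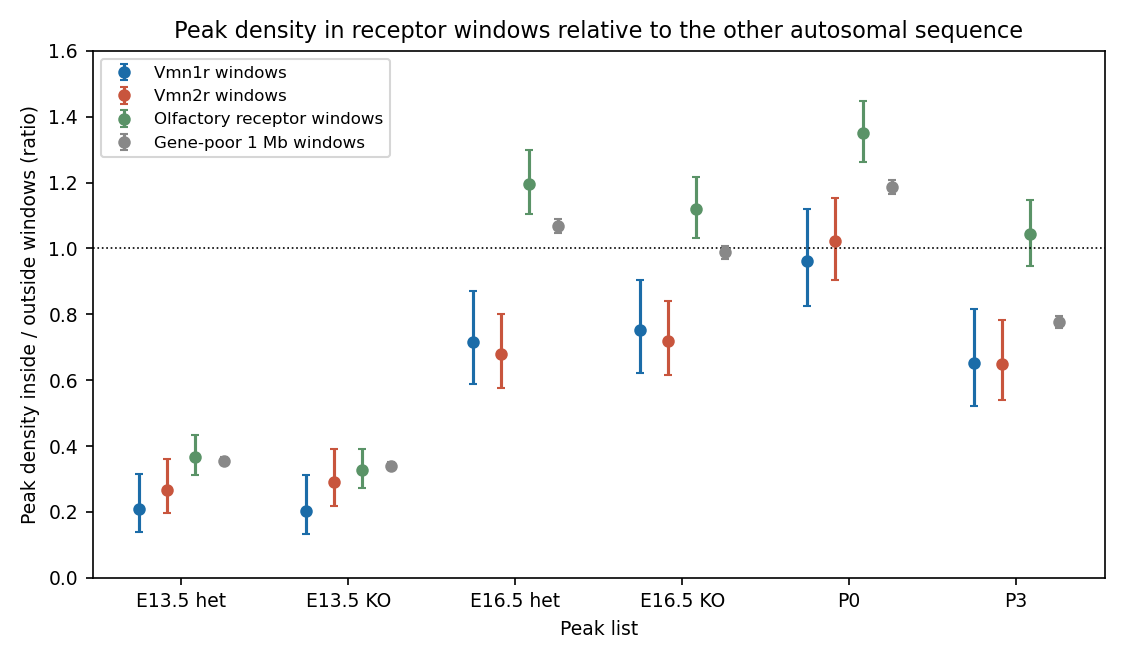
Peak density inside windows divided by that of the remaining autosomal sequence (vertical axis, ratio) for each of the 6 peak lists (horizontal axis, het for heterozygous and KO for knockout). Points are the ratios for Vmn1r, Vmn2r, olfactory receptor and gene-poor windows, bars are 95% Wilson intervals, and the dotted line marks equal density; all 4 sets are lowest at E13.5 and highest at P0.

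The place of this ratio against 1 turned on which windows were taken. In windows of the 136 genes whose promoter shares no stretch of 50 bases with the promoter of another gene, a choice made after the data were seen, the ratio was 0.334 and 0.311 at E13.5, 1.11 (0.909 to 1.34) and 1.16 (0.962 to 1.39) at E16.5, 1.63 (1.41 to 1.89) at P0, and at P3 it was 1.05 (0.843 to 1.31). With peaks at the ends of other genes left out inside and outside, it was 0.279 and 0.277, 0.862 and 0.910, 1.23 and 0.836. E13.5 was lowest and P0 highest in both. The 136 genes leave out nearly all receptor pseudogenes, since among their symbols only Vmn1r-ps103 is that of a pseudogene. The olfactory ratios above carry no such restriction.

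The window edge at 10 kb did not separate dense from sparse sequence, and density was higher just outside it in every list. Inside receptor genes the lists held 3.74, 3.74, 12.3, 13.6, 20.9 and 9.45 peaks per Mb, from E13.5 heterozygous to P3. Between 5 and 10 kb from a receptor gene the lists held 3.81, 3.38, 15.9, 16.1, 30.0 and 12.5 peaks per Mb, and between 10 and 15 kb, just outside, 3.93, 5.06, 21.9, 21.4, 35.7 and 19.9, from E13.5 heterozygous to P3. Within the bounds of the clusters but outside every window, 7.85 Mb of sequence held 22, 24, 152, 150, 257 and 142 peaks. On the X chromosome, outside the rule, 1 peak lay in the window of Vmn2r121 in each of the E16.5 lists and the P0 list.

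Joining overlapping peaks of the 6 lists gave 517 regions with a median width of 530 bp. Regions first held after E13.5 made up most of them. The P0 list alone held 142 (27.5%), E16.5, P0 and P3 together held 117 (22.6%), and E16.5 and P0 without P3 held 107 (20.7%). Among all 102899 autosomal regions these patterns made up 12.5%, 11.7% and 11.2%. Patterns with E13.5 were rarer: 36 regions (6.96%) were held at all 4 stages and 27 (5.22%) at E13.5 only, against 20.1% and 15.6% of all autosomal regions. In total 72 regions (13.9%) were held at E13.5, against 45.6%. The olfactory receptor regions had shares of 20.4% for P0 alone, 21.3% for E16.5 with P0 and P3, 8.55% for all stages and 4.09% for E13.5 only.

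**Figure D2:**
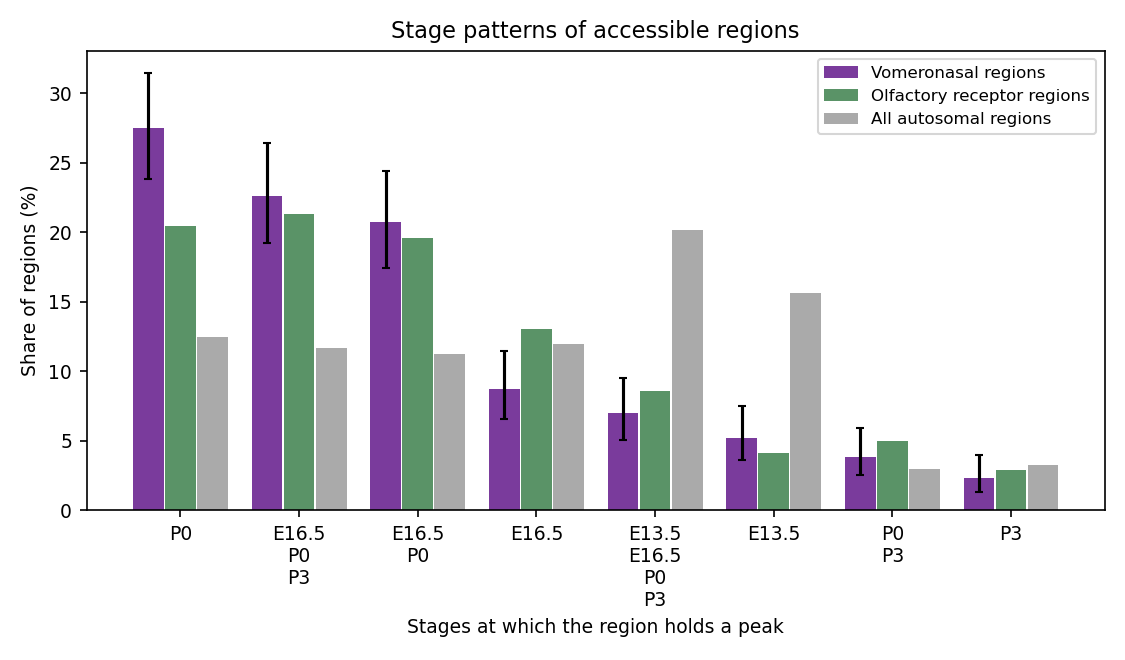
Share of regions (vertical axis, %) with each combination of stages (horizontal axis), for the 517 vomeronasal regions with 95% Wilson intervals, the olfactory receptor regions and all autosomal regions. Patterns with at least 10 vomeronasal regions are drawn; the first 3, all without E13.5, are higher in both receptor sets than in all autosomal regions, and the 2 patterns with E13.5 are lower.

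Stage by stage, 29 of 64 members of the E13.5 heterozygous list (45.3%, 33.7 to 57.4) and 26 of 66 of the knockout list (39.4%, 28.5 to 51.5) had no overlap at E16.5 in the same genotype, where the autosomal shares were 43.5% and 39.6%. The loss of the few early peaks was thus near the background in these windows. It was larger with no flank. There 31.8% (16.4 to 52.7) of 22 heterozygous members had a peak at E16.5, against 56.5% of autosomal peaks. In knockout cells 45.5% (26.9 to 65.3) of 22 did, a range that holds the autosomal 60.4%. At E16.5, 204 of 239 members in heterozygous cells (85.4%, 80.3 to 89.3) and 227 of 267 in knockout cells (85.0%, 80.2 to 88.8) had no E13.5 counterpart, against 57% and 57.5% of autosomal peaks. Most E16.5 members were found again at P0: 215 of 239 heterozygous members (90.0%, 85.5 to 93.2) and 230 of 267 knockout members (86.1%, 81.5 to 89.8), against 77.8% and 76.8% of autosomal peaks. Both comparisons share the P0 list.

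At P0, 210 of 425 members (49.4%, 44.7 to 54.1) had no counterpart in the E16.5 heterozygous list and 197 (46.4%, 41.7 to 51.1) none in the knockout list, against 37.3% and 34.5% of autosomal peaks. By P3 the direction turned. Of the P0 members, 253 of 425 (59.5%, 54.8 to 64.1) had no overlap at P3, against 43.3%. Of the P3 members, 171 of 189 (90.5%, 85.4 to 93.9) overlapped a P0 peak, against 83.5%, so few P3 members were new after P0. The P3 list is also the shorter of the pair, with 43563 autosomal peaks against 64193, and the part of list length in this was not tested.

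Members held by 1 genotype alone took a share of their list that was near or below that of all autosomal peaks. At E13.5, 8 of 66 knockout members had no overlap in the heterozygous list (12.1%, 6.27 to 22.1; 19.8% of autosomal peaks), and 6 of 64 heterozygous members had none in the knockout list (9.38%, 4.37 to 19.0; 21.4%). At E16.5, 74 of 267 knockout members were knockout-only (27.7%, 22.7 to 33.4; 23.4% of autosomal peaks) and 47 of 239 heterozygous members heterozygous-only (19.7%, 15.1 to 25.2; 18.8%). The autosomal share lay inside the interval in 3 of these 4 comparisons, and above it for heterozygous-only members at E13.5. Knockout-only members outnumbered heterozygous-only ones 1.57 to 1 at E16.5 (1.09 to 2.26), a range that holds the autosomal ratio of 1.32, and 1.33 to 1 at E13.5 (0.483 to 3.68), a range that holds 0.907.

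No vomeronasal region was held by both knockout lists and neither heterozygous list, or the reverse, where 620 and 354 of all autosomal regions had these patterns. Those autosomal counts are 0.603% and 0.344% of regions. Many E16.5 peaks of 1 genotype recurred at P0: 48 of 74 knockout-only members (64.9%, 53.5 to 74.8) and 33 of 47 heterozygous-only members (70.2%, 56.0 to 81.3) overlapped a P0 peak, against 48.9% and 45.4% of autosomal peaks of those kinds. Members shared by the genotypes did so in 94.3% and 94.8% of cases, against 85.3% of shared autosomal peaks in either list. Where both genotypes held a peak, the median distance between the 2 peak centres was 20 bp (E13.5) and 40 bp (E16.5), against 27 and 34 bp over all autosomal peaks. Across 45 clusters with any peak, the knockout list held more peaks than the heterozygous list at E16.5 in 19, fewer in 6 and as many in 20, with differences from -2 to 4 peaks. The knockout list is also the longer at E16.5, with 54786 autosomal peaks against 51706, and the part of list length was not tested. Clusters of 1 pair of lists are not replicates.

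The clusters differed widely. Of 76, 45 held a peak in some list and 31 held none, and 5 clusters held 263 of the 517 regions (50.9%) on 34.1% of the genes. The richest, chr17:18039484-21090658 from Vmn2r124 to Vmn1r-ps146 with 53 genes, had 99 regions. It held 4 and 3 peaks in the E13.5 lists (heterozygous before knockout), 51 and 53 in the E16.5 lists, 89 in the P0 list and 41 in the P3 list. A run of 37 Vmn2r genes and pseudogenes at chr7:84800427-86256201, from Vmn2r-ps62 to Vmn2r76, had 68 regions, with 1 and 3, 27 and 26, 63, and 22 peaks. At P0 it held 69.8 peaks per Mb of window, more than any other cluster of at least 5 genes.

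The next 3 clusters were smaller in count. Vmn2r-ps54 to Vmn2r-ps60 (chr7:41658014-42440369, 11 genes, 34 regions) held 1 and 2, 13 and 14, 31, and 10 peaks. Vmn1r-ps53 to Vmn2r56 (chr7:11643129-12743320, 34 genes, 33 regions) held 6 and 7, 17 and 17, 25, and 13 peaks. Vmn1r-ps92 to Vmn1r-ps135 (chr13:22047168-23279501, 75 genes, 29 regions) held 5 and 7, 13 and 17, 21, and 14 peaks. In all 5, P0 held the most peaks and E13.5 the fewest.

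**Figure D3:**
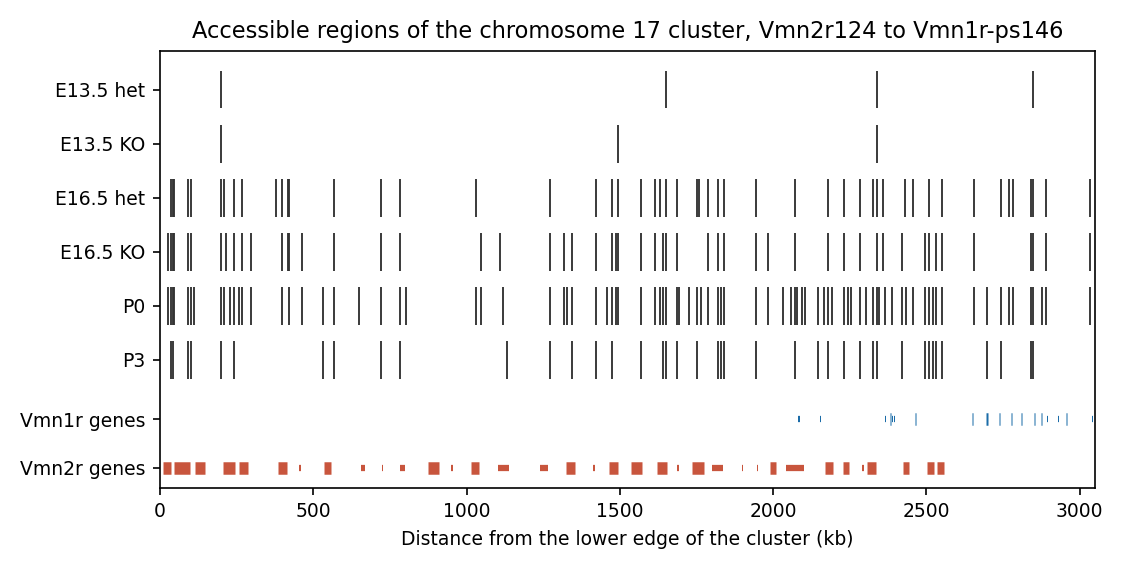
Accessible regions of the chromosome 17 cluster from Vmn2r124 to Vmn1r-ps146, by distance from its lower edge (horizontal axis, kb), with 1 row per list. Each vertical line is the centre of a region that the list holds; blocks below are Vmn1r genes (blue) and Vmn2r genes (red), thin for pseudogenes and at least 4 kb wide as drawn, and regions outside the 10 kb windows are not shown. The E13.5 rows hold 4 and 3 peaks, the E16.5 rows 51 and 53, the P0 row 89 and the P3 row 41.

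In 19 clusters no peak was found at E13.5 and some were found later, among them Vmn1r21 to Vmn1r-ps23 on chromosome 6, with 0 and 0, 13 and 16, 18, and 10 peaks. Over the 45 clusters with any peak, the E16.5 heterozygous list held more than the E13.5 heterozygous list in 29 and fewer in 4. The P3 list held fewer than the P0 list in 36 and more in 1. Some clusters departed from this course. Vmn2r-ps3 to Vmn2r-ps13 on chromosome 3, with 18 genes, held 7 and 7 peaks in the E13.5 lists, 4 and 6 in the E16.5 lists, 6 in the P0 list and 4 in the P3 list. Vmn2r19 to Vmn2r25 on chromosome 6 held 6 and 6, 6 and 5, 7, and 7, and Vmn2r84 to Vmn2r87 on chromosome 10 held 4 and 4, 5 and 5, 4, and 3.

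**Figure D4:**
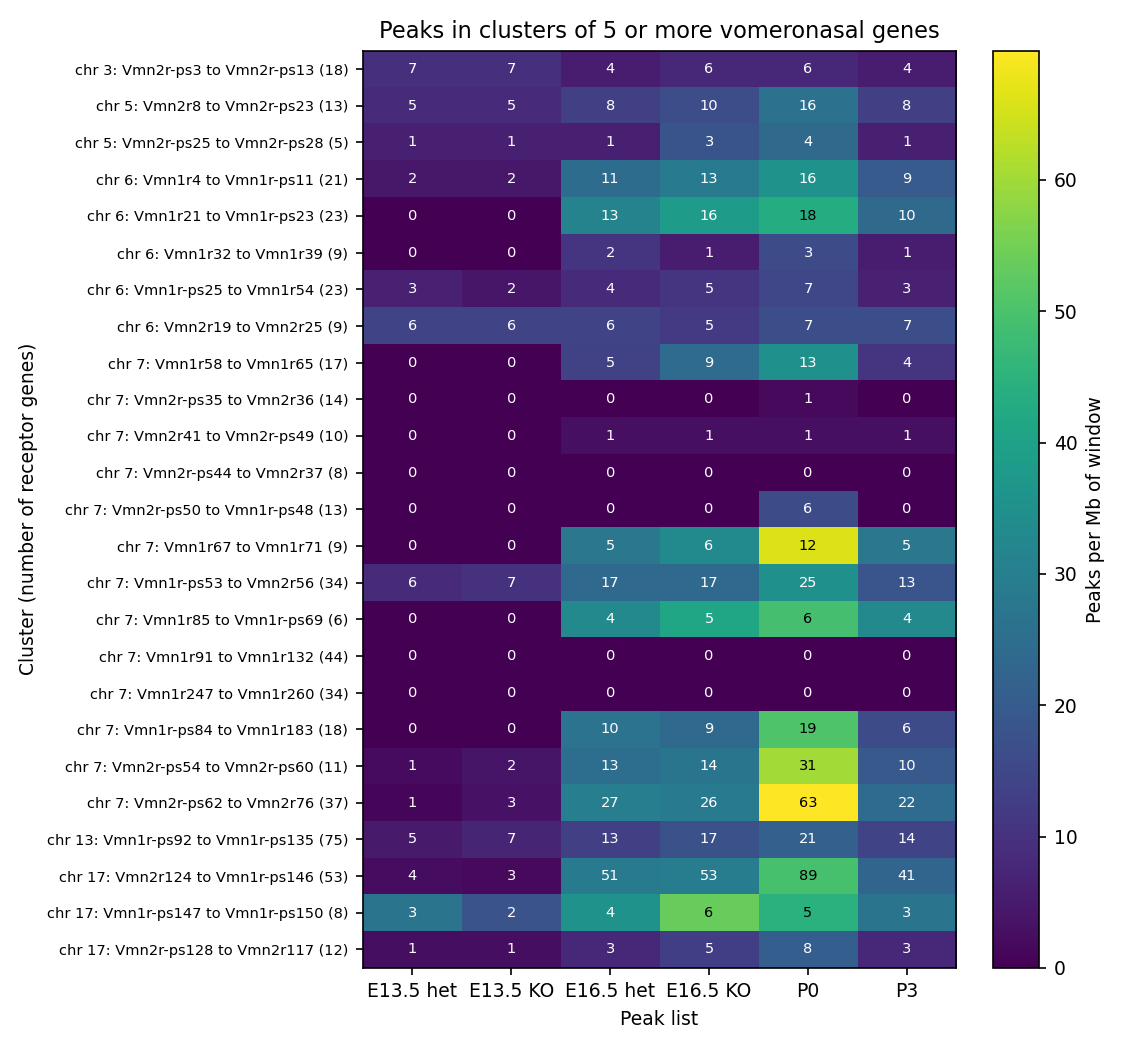
Peaks in the 25 clusters of at least 5 vomeronasal genes (rows, with the number of genes in brackets) in each list (columns). Numbers are peaks, and the colour gives peaks per Mb of window; most rows are brightest at P0, and 3 rows on chromosome 7 are empty in all 6 lists.

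All 6 lists held 30 regions (5.80% of 517, against 16.4% of all autosomal regions). At 16 of these 30 (53.3%, 36.1 to 69.8) an outer end of another gene lay within 1000 bp, compared with 48 of all 517 (9.28%). Counted at the end of any gene, receptor genes included, the shares were 53.3% of the 30 and 15.3% of the 517. Over the autosomes, 64.0% of regions held by 6 lists and 21.1% of all regions lay at the end of some gene. For 7 of the 16 regions the neighbour was a protein-coding gene. Rfc3 encodes a subunit of replication factor C, the clamp loader of DNA replication. Nt5c3 encodes a cytosolic nucleotidase, and Zfp606, Zfp780b and Zfp709 encode zinc finger proteins. AI987944 and 5430403G16Rik were the others.

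The Rfc3 region lay at chr5:151650890-151651419, the Zfp606 region at chr7:12478107-12478646 and the Zfp780b region at chr7:27978884-27979513, each overlapping the promoter printed above. Their nearest receptor genes were Vmn2r-ps28 at 9676 bp, Vmn2r-ps53 at 9219 bp and Vmn1r-ps87 at 3348 bp. The Zfp709 region lay at chr8:71881800-71882438, 3216 bp from Vmn2r-ps91, and the Nt5c3 region at chr6:56923610-56924304, at the end of Vmn1r4. At 7 further regions the neighbour was a pseudogene: Ctdsp2-ps, Gm18754 and Gm18755 beside Vmn2r85, Vmn2r86 and Vmn2r87, Gm7217 beside Vmn2r107, Gm20426 beside Vmn1r53, Gm18608 at a region inside Vmn2r24 and Gm3836 beside Vmn1r-ps57. The last 2 lay at tRNA genes, n-TSgct5 (chr13:22050710-22051292) and n-TIaat15 (chr13:23270261-23270869), at the lower and upper edges of the chromosome 13 Vmn1r cluster.

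The other 14 regions held by all 6 lists had no other gene's end within 1000 bp. On chromosome 7 they lay nearest to Vmn1r-ps59, Vmn1r83, Vmn2r57, Vmn2r-ps56 and Vmn2r-ps76, on chromosome 17 nearest to Vmn2r94, Vmn1r234 and Vmn1r-ps149, and on chromosome 14 nearest to Vmn2r-ps110 and Vmn2r-ps111, both inside the gene Gm7247. The remaining 4 lay nearest to Vmn2r-ps94 and Vmn1r42 and inside Vmn2r-ps11 and Vmn2r-ps23. The gene table gives outer bounds only, so exon and intron could not be told apart.

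Of the 72 regions held at E13.5, 21 lay at another gene's end (29.2%, 19.9 to 40.5), and of the 445 not held at E13.5, 27 (6.07%, 4.20 to 8.68). Counted at the end of any gene, receptor genes included, these were 34.7% and 12.1%, near the 32.8% and 11.3% of all autosomal regions held and not held at E13.5. Of the 27 regions of E13.5 alone, none lay at another gene's end, 3 lay at a receptor gene's end, and 12 lay inside a receptor gene. Regions first held after E13.5 were mostly away from any annotated end, as were the autosomal regions not held at E13.5. Of the 445, 263 (59.1%) were neither in a gene nor at the end of one, a share not counted over the autosomes. Another 134 (30.1%) lay inside a receptor gene, where such genes span 5.61 of the 15.9 Mb of windows. Neighbours of regions held by at least 3 lists but not all 6 were pseudogenes, apart from the protein-coding Gm11295 and the snoRNA gene Gm22724. They were Gm24843, Cd9-ps and Tprgl-ps1 with 5 lists, Gm11295, Gm18710, Gm7025, Gm5130 and Gm6872 with 4, and Gm5145, Gm22724 (at 2 regions), Gm8902, Gm7224 and Gm2308 with 3.

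Peaks at the receptor genes' own ends were few. A peak lay within 1000 bp of an outer end of 5, 5, 14, 18, 28 and 12 of 616 receptor genes, from E13.5 heterozygous to P3, or 0.812%, 0.812%, 2.27%, 2.92%, 4.55% and 1.95%. Over all 46710 autosomal genes the shares were 35.9%, 36%, 38.1%, 39.3%, 42.6% and 37.1%. Among 8822 pseudogenes of other families, 6.0%, 5.75%, 12.7%, 13.4%, 19.7% and 11.6% had one, and of 1419 olfactory receptor genes 1.76%, 1.55%, 6.69%, 7.33%, 11.1% and 5.43%. A peak within 10 kb was found at 54, 59, 201, 216, 284 and 172 receptor genes (8.77%, 9.58%, 32.6%, 35.1%, 46.1% and 27.9%), against 59.5%, 58.8%, 63.7%, 65.9%, 70.2% and 62.5% of all autosomal genes. In all 6 lists together 310 receptor genes had a peak within 10 kb and 306 had none.

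Only 33 receptor genes had a peak at an end in any list, and 2 had one in all 6. These were the pseudogene Vmn1r-ps135 (chr13:23268880-23269501), where the peak lies at a tRNA gene, and Vmn1r4 (chr6:56923914-56957608), which shares the peak with Nt5c3. Vmn1r231 (chr17:20889716-20890651) had one in 5 lists, at chr17:20888282-20888835, and lacked it in the E13.5 knockout list. In 4 lists a peak lay at the end of Vmn1r-ps114, Vmn2r100, Vmn1r70, Vmn1r-ps51, Vmn1r83 and Vmn1r-ps68. At Vmn1r70, Vmn1r-ps51, Vmn1r83 and Vmn1r-ps68 these were both E16.5 lists, P0 and P3. Vmn2r12 showed the reverse, with a peak in both E13.5 lists and in no later one, at chr5:109096390-109096919.

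The promoter table held 323 entries for 322 receptor genes, each reaching from 250 bases before to 50 bases after an annotated start. None overlapped a peak in either E13.5 list or the E16.5 heterozygous list, where the Wilson interval reaches up to 1.2%. In the E16.5 knockout, P0 and P3 lists 1 did, that of Vmn1r65, at a region spanning chr7:6010596-6011138. Of 31396 autosomal promoters 38.7%, 38.9%, 38.7%, 39.4%, 40.5% and 38.4% overlapped one. Receptor promoters had a median of 1 CG dinucleotide and 36.7% G and C, and all autosomal promoters 7 and 53%. Over all autosomal promoters with 0 to 1 CG dinucleotide, 1.27% to 1.59% overlapped a peak, and of those with 10 or more 76.0% to 78.5%. For 200 of 229 protein-coding Vmn1r genes the annotated length is a multiple of 3, as in a model of coding sequence without UTRs. The annotated start of those genes may then be the start of translation, and these windows would not hold the true promoter.

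Among the motifs searched on both strands, the GC box GGGCGG was in 0 of 323 receptor promoters and in 36.0% of all autosomal ones, the ETS core CCGGAA in 2.48% and 15.1%, and the CTCF core GGNGGCAG in 0.619% and 12.7%. The TATA box TATAAA was in 35.3% and 13.6%, CCAAT in 53.6% and 37.3%, and the DMRT core TACATTGT in 4.95% and 0.682%. The families differed: CCAAT was in 67.0% of Vmn1r and 29.9% of Vmn2r promoters, and the DMRT core in 7.28% and 0.855%. The homeodomain core TAATTA was in 10.8% and 5.27%, the octamer ATGCAAAT in 3.41% and 1.75%, the E-box CANNTG in 87.6% and 72.2%, and the EBF core in 0% and 0.920%. Olfactory receptor promoters held the TATA box in 41.1%, CCAAT in 40.7%, the homeodomain core in 18.7% and the DMRT core in 3.18%. Base composition differs between the sets, and its part in these shares was not tested. Each entry was counted separately, although 54 Vmn1r and 11 Vmn2r promoters share all their upstream bases with another gene. The 16 receptor promoters with the DMRT core include the 6 of the Vmn1r111 group, which hold the same upstream sequence. The part of such shared sequences in the motif shares was not tested.

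Among the receptor genes with a promoter entry, those without a peak nearby shared more of their promoter sequence with other genes than those with one. For each promoter, the share of its 50-base stretches found in the promoter of another gene was counted. In Vmn1r genes with no peak within 10 kb in any list the median share was 81.7% over 118 promoters, and 24 of these shared none; in those with a peak it was 0% over 88, and 69 shared none. In Vmn2r genes the medians were 45.2% over 38 promoters without a peak and 0% over 79 with one. Of the 306 genes without a peak, the rest have no entry and no value. Another gene had the same 250 upstream bases for 54 Vmn1r promoters (26.2%), in 21 groups, and 11 Vmn2r promoters. None of these lay in a group with a peak within 10 kb. The largest group held Vmn1r111, Vmn1r118, Vmn1r131, Vmn1r138, Vmn1r166 and Vmn1r257, whose sequence is printed above. How the authors treated reads that map to several places is not given in the sources used here, and the part of such reads in the empty stretches was not tested.

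Among the 31 empty clusters, 25 have no promoter entry. The 6 others differed in sharing. Vmn1r91 to Vmn1r132 (chr7:20091158-21625147, 44 genes) and Vmn1r247 to Vmn1r260 (chr7:21750531-23077456, 34 genes) held no peak in any list, and their promoters shared a median of 100% of 50-base stretches. Vmn2r-ps44 to Vmn2r37 (chr7:8791141-9233653, 8 genes) held none either, with 86.5%, nor did Vmn1r165 to Vmn1r166, with 100%. Vmn1r55 to Vmn1r57 and Vmn2r129 to Vmn2r125 were empty too, with medians of 11.4% and 0%. Of 27 clusters with at least 3 promoters, the 6 with a median of 80% or more held 0 to 13.4 peaks per Mb at P0, the 3 between 20% and 80% held 8.47 to 20.9, and the 18 under 20% held 8.18 to 69.8. The empty clusters of all sizes held 134 genes on 3.27 Mb, and 16 of the 31 were single genes.

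**Figure D5:**
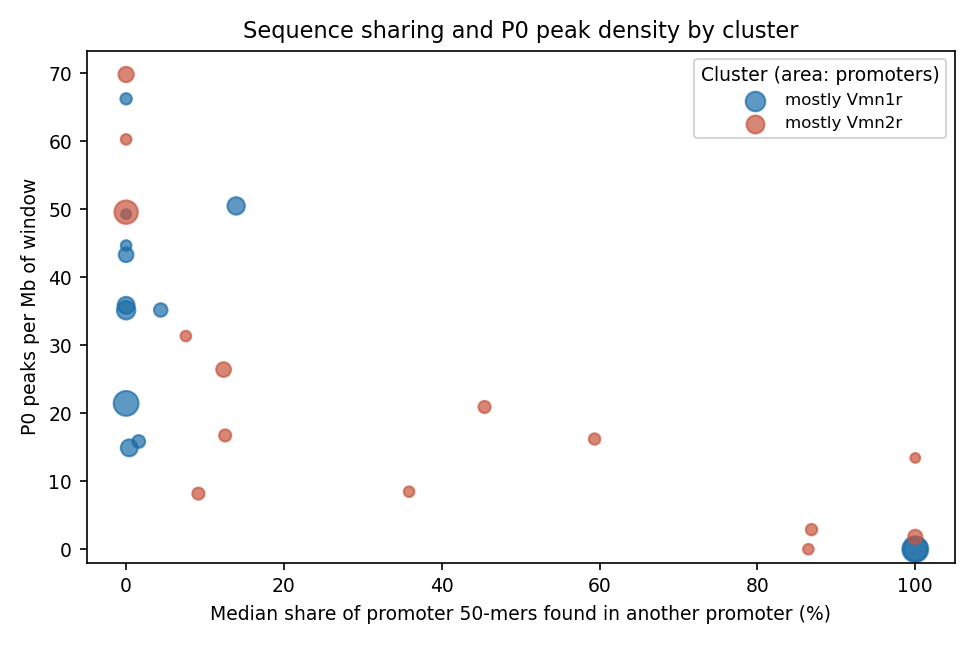
P0 peaks per Mb of window (vertical axis) against the median share of promoter 50-base stretches found in another gene's promoter (horizontal axis, %) for the 27 clusters with at least 3 promoters. Point area grows with the number of promoters and colour gives the more frequent family; the 6 clusters at 80% or more lie at 13.4 peaks per Mb or below, and the others spread from 8.18 to 69.8.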

How the data were processed

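ATAC-seq peak lists of 16 samples in 8 groups were used. The authors deposited peak positions only, 3 columns per list, with no score, height or coverage. All but 8 of the peaks are 501 bp wide. Per the submitters' processing notes the build was mm10, and bcl2fastq 2.20, cutadapt 1.18, Bowtie2 2.3.4.1, deepTools 3.5.0 and HOMER 4.10 were used. The peak caller's settings, duplicate handling and pooling of samples are not given in the sources used here. A fixed width discards a peak's extent, and the length of a list moves with depth and threshold.

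Positions were read as GRCm38 and are given 1-based. Groups came from the sample labels. Of the gene table's Vmn1r and Vmn2r entries, those on the X and Y chromosomes and those placed on scaffolds with coordinates below 3 Mb were left out. Density was taken over 15.9 Mb of windows and a span of 2396 Mb between the outermost autosomal peaks. Lists shared a peak where at least 1 bp overlapped. Shares carry 95% Wilson intervals (scipy 1.17.1), which cover counting error only. Python 3.11.15, numpy 2.4.6, pandas 2.3.3 and matplotlib 3.10.9 were used, and overlaps were checked against bedtools 2.31.1 and tested on simulated data. The motifs were a preset list of 10. The genes and regions named were those held by all 6 lists, both-genotype patterns, the 5 largest clusters, receptor genes with a peak at an end in most lists, and neighbours of regions held by at least 3 lists. Members and lists were chosen with earlier results of these data known. The alternatives were other flanks, gaps counted, protein-coding genes only, peak midpoints, peaks at other gene ends left out, the richest cluster left out, reciprocal overlap, peaks within 500 bp, other gene-end windows and, added after seeing the data, genes with unshared promoters only.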

Additional observations from a re-analysis of the deposited data

Results flagged for a closer look

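In Vmn1r windows the direction of the genotype difference was opposite at the 2 stages, which is why it is listed here. The density relative to the other autosomal sequence in the knockout list, divided by that in the heterozygous list, was 0.974 at E13.5 (22 heterozygous and 21 knockout peaks) and 1.05 at E16.5 (99 and 110 peaks). No test of the difference was run, since each group has 1 list, and the intervals of the 2 genotypes overlap at both stages.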

How the results depend on the processing

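No density ratio in these alternatives changed sides of 1 with intervals clear of 1 on both sides. The P0 ratio could not do so, since its reported interval spans 1, and counts and shares were not judged this way. Of all 168 values, 102 stayed within 1.5 times the count, or within the interval, of the value reported. The other 66 follow. Where all 6 lists moved, values run by stage from E13.5 to P3, with heterozygous before knockout. With no flank, members numbered 22, 22, 70, 79, 122 and 54 and the density ratio was 0.581 (E16.5 heterozygous), 0.618 (E16.5 knockout), 0.815 (P0) and 0.532 (P3). With a flank of 50 kb, members numbered 170, 177, 520, 550, 836 and 440 and the density ratio was 0.353 (E13.5 heterozygous), 0.375 (E13.5 knockout), 0.826 (E16.5 heterozygous) and 0.830 (P3). With gaps inside clusters counted, members numbered 391 (E16.5 heterozygous), 417 (E16.5 knockout), 682 (P0) and 331 (P3) and the density ratio was 0.766 (P3). With protein-coding genes only, members numbered 33, 33, 156, 176, 279 and 125 and the density ratio was 0.200 (E13.5 knockout). Without peaks at other gene ends, the density ratio was 0.862 (E16.5 heterozygous), 0.910 (E16.5 knockout), 1.23 (P0) and 0.836 (P3). Without the chromosome 17 cluster, the density ratio was 0.888 (P0). With unshared promoters only (added), members numbered 23, 21, 100, 111, 183 and 80 and the density ratio was 0.334 (E13.5 heterozygous), 1.11 (E16.5 heterozygous), 1.16 (E16.5 knockout), 1.63 (P0) and 1.05 (P3). Gene-end windows of 500 bp found 2, 2, 6, 6, 11 and 5 genes. Gene-end windows of 5000 bp found 33, 35, 120, 132, 178 and 95 genes. All 16 genotype-specific shares and all 4 pattern counts stayed within those limits. Of the stage shares, with no flank 31.8% of E13.5 heterozygous members and 45.5% of E13.5 knockout members had a peak at E16.5, 10% of E16.5 heterozygous members had one at E13.5, and 83.3% of P3 members had one at P0. The last was 84.7% with a reciprocal overlap of 50% and 94.7% with peaks within 500 bp shared. The cause was not tested, apart from counts that change because the windows are longer or shorter or hold fewer genes.

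A stricter threshold and leaving out each replicate were not run, because the lists hold no score and no value per sample. No paired analysis was possible because each group has 1 list and no value belongs to a numbered replicate. Depth is unknown, so a missing peak does not show closed chromatin. With 1 list per group, a difference between lists was not compared with the spread between samples, and intervals treat peaks as independent. Without a genome, the sequence and mappability of the peaks were not examined.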
